A study of Rattus norvegicus with 9 samples.

Results

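The level of 7 genes used to mark neural progenitors, namely Nes, Vim, Hes3, Lhx2, Gbx2, Emx2 and Prom1, was examined in rat bone marrow mesenchymal stem cells (MSCs) and in the neural progenitor-like cells (NPCs) induced from them. The genes were taken by gene ID out of 20973 genes with an ID in the data, as named markers and with earlier results of these data known. The IDs of Emx2 and Prom1 came from tables of the study that mostly hold genes it called on these samples. The data held 9 libraries in 3 groups of 3. MSCs at passage 3 were untreated, NPCs were cells at passage 3 given EGF and bFGF for 3 days, and the remaining group received EGF, bFGF and IGF1 for the same time. The NPCs received 20 ng/ml of each factor. The dose of IGF1 and the medium of the cells given it were not stated in the methods read. The MSCs came from the marrow of 3 Sprague-Dawley rats of 4 weeks, and the NPCs were made from the MSCs of the same rats. NPCs were grown in suspension on ultra-low attachment plates with NeuroCult NS-A medium, so that growth factors, medium and suspension culture cannot be told apart. RNA was taken from whole cultures, where fewer cells of a type and less RNA per cell cannot be told apart.

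Neural progenitors line the ventricles of the developing brain, divide to renew themselves, and give rise to neurons and glia. They build their cytoskeleton from the intermediate filament proteins vimentin (Vim) and nestin (Nes), and hold off differentiation through transcriptional repressors of the Hes family, of which Hes3 is one. Homeodomain factors assign them a position, with Emx2 and Lhx2 acting in the forebrain and Gbx2 on the hindbrain side of the midbrain-hindbrain boundary. Prom1 encodes prominin-1, also called CD133, a membrane protein of cell protrusions used to sort neural stem cells. Vimentin is also a main filament of mesenchymal cells such as MSCs.

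Of the 7 genes, Hes3, Lhx2 and Gbx2 rose in NPCs, Vim, Emx2 and Prom1 fell, and Nes did not pass. So 6 of 7 were called in NPCs against MSCs, where 21.4% of the 13677 genes tested were called, 11.4% of them higher and 10.1% lower. A gene was called when its log2 fold change in limma reached 1 in either direction with p, adjusted by Benjamini-Hochberg over all genes tested, no higher than 0.05. All 7 genes passed the filter of 0.1 FPKM in at least 3 libraries, Prom1 through its MSC libraries alone. FPKM relate the fragments of a transcript to its length in kilobases and to the size of the library, and log2 fold changes were computed on scaled FPKM with 0.1 added. The NPC libraries did not overlap the MSC libraries for any of the 7 genes, against 49.7% of the genes tested. Because of how the genes were chosen, these shares are background, and the higher share among the 7 genes is not a result about them. Median size of the log2 fold change was 1.92 over the 7 genes and 0.52 over all genes tested. For the same reason this difference is not a result about the 7 genes. With the third MSC library left out and the filter set at 2 libraries, 6 genes were still called, 3 in each direction.

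**Figure D1:**
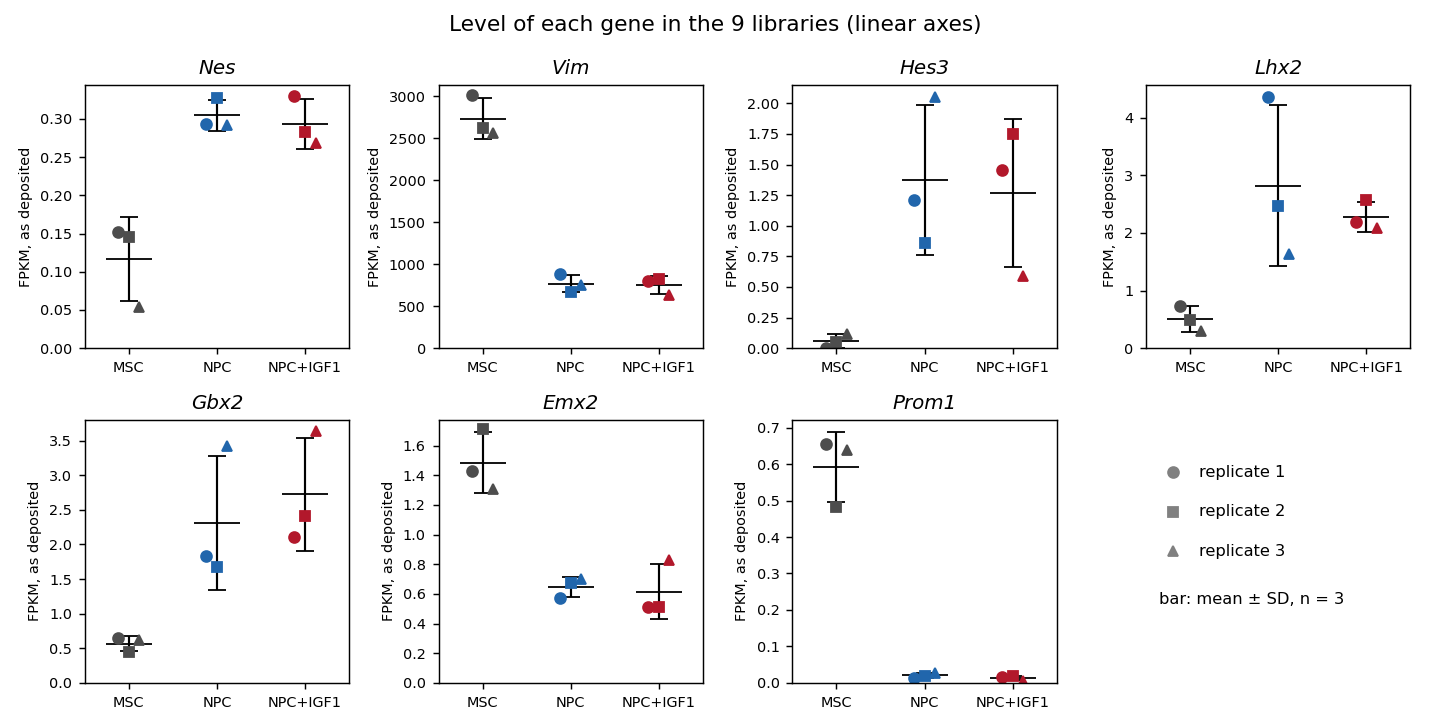
FPKM of each of the 7 genes in every library, on linear axes that start at 0, with points for replicates 1 to 3 and bars for the mean ± SD (n = 3). Hes3, Lhx2, Gbx2 and Nes lie higher in all 6 induced libraries than in the 3 MSC libraries, and Vim, Emx2 and Prom1 lie lower. A lower error bar that would pass below 0 stops at the axis.

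The depth implied by the widths of the deposited confidence intervals was 39.3 to 50.8 M reads per library. Libraries of the same group correlated at 0.955 to 0.971 over genes on the log2 scale, and MSC libraries correlated with induced ones at 0.877 to 0.908. The third MSC library stood apart in how its intervals related to its FPKM, and the cause was not tested. Among transcripts alone at their locus, the reads implied by the interval differed by more than 15% from the usual ratio to FPKM in 55.3% of transcripts there and in 5.23 to 8.39% in the other 8 libraries. Its size factor was 0.884, against 0.996 to 1.06 for the other libraries of that fit. Values without this library are therefore given beside each gene.

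Few marker genes of cell types could be looked up, since names were paired with IDs for a part of the genes only. Those names came mostly from genes that the study called on these samples, so markers that changed were more likely to be found. The values of these markers are therefore no independent evidence of a shift in cell types. Of 17 MSC and stroma markers 3 were found. Their summed FPKM, chiefly Itgb1, was 1011 to 1223 in MSCs, 208 to 274 in NPCs and 230.1 to 258 with IGF1. Itgb1, an integrin, and Cxcl12, a chemokine, fell in NPCs, and Vcam1, an adhesion molecule, rose. Of 15 neuronal markers 4 were found, with sums of 0.164 to 0.189 FPKM in MSCs, 0.041 to 0.103 in NPCs and 0.0598 to 0.133 with IGF1. In NPCs all 4, Dcx and Syt1 among them, stayed under 0.1 FPKM in every library, and Rbfox3, which defines mature neurons, was listed at 0 in all 9. Of 15 haematopoietic markers 4 were found, and their sum was 0.265 to 0.554 FPKM in MSCs, 9.97 to 11.6 in NPCs and 9.31 to 14.8 with IGF1. Cd68, a lysosomal protein of macrophages, made up most of this sum and rose in NPCs, from a mean of 0.344 to 10.5 FPKM. Spi1, a myeloid transcription factor, also rose, from a mean of 0.0159 to 0.173 FPKM. Ptprc, which defines white blood cells, was listed at 0 in the 3 NPC libraries and reached at most 0.0142 FPKM in any library. Of 14 endothelial and pericyte markers 5 were found, and their sum was 4270 to 4820 FPKM in MSCs, 45.0 to 150.5 in NPCs and 36.2 to 124 with IGF1, with Tagln, an actin-binding protein of contractile cells, as the largest part. Tagln, Flt1 and Mcam fell in NPCs, Flt1 being listed at 0 in all induced libraries, and Vwf and Rgs5 rose. Of 12 glial markers 4 were found, with sums of 92.7 to 102 FPKM in MSCs, 81.7 to 144.7 in NPCs and 108 to 148 with IGF1, chiefly S100b. S100b, a calcium-binding protein, was not called in NPCs or with IGF1, and Gfap was not tested. The part of these cell types in the values of the 7 genes was not tested.

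Promoter windows are shown for 4 of the genes, because an unannotated single-exon transcript on the opposite strand lay within 10000 bases upstream of Vim, Gbx2 and Emx2 in all 9 libraries and upstream of Nes, Lhx2 and Prom1 in 0 libraries. Among 14208 tested genes, 2.70% had such a transcript in all 9 libraries. Each window holds the 250 bases before the RefSeq start in build GRCr8, read 5′ to 3′ on the strand of the gene, and RefSeq entries were found for 5 of the 7 genes. Capitals mark 3 of the 4 motifs searched on both strands, namely TATAAA (in 13.1% of 27457 promoters), CCAAT (34.3%) and GGGCGG (32.4%). The fourth motif, TGANTCA (6.36%), was not in these 4 windows. The windows lie at chr17:81577011-81577260 (+) for Vim, chr9:97959884-97960133 (-) for Gbx2, chr2:175736338-175736587 (+) for Nes and chr3:42535494-42535743 (+) for Lhx2.
Vim: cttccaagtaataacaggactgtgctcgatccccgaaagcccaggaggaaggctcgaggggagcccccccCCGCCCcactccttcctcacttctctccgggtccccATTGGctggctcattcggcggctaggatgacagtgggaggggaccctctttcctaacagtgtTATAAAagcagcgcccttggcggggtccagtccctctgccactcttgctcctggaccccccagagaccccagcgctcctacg
Gbx2: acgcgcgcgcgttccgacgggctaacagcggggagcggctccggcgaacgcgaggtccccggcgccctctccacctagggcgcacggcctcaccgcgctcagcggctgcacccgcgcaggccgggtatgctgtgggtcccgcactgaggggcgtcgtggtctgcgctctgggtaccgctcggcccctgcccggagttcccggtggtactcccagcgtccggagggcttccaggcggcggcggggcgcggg
Nes: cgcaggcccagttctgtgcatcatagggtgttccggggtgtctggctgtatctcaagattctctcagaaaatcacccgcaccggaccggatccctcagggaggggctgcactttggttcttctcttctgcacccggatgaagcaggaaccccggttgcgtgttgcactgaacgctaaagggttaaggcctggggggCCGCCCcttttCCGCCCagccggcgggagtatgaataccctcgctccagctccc
Lhx2: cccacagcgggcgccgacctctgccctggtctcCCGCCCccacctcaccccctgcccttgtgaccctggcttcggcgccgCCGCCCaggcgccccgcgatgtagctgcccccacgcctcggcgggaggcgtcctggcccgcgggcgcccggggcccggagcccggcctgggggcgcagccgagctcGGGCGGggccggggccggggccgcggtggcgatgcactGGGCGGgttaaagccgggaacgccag
The window of Vim held TATAAA, starting 82 bases before the start, one ATTGG and one CCGCCC. Gbx2 had none of the motifs and 38 CpG pairs at 76.4% GC, more CpG than 98.2% of the promoters, and Lhx2 had 33 CpG pairs at 80.8% GC with 4 GC boxes. Nes had 2 GC boxes, 14 CpG pairs and 60.4% GC. The median promoter held 6 CpG pairs at 52% GC.

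Vim and Nes, the filament genes, stood at very unequal levels, and Vim fell while the higher level of Nes was not called in NPCs. Vim (ENSRNOG00000018087, chromosome 17, 82500858 to 82509377 on the + strand, in the build of the files) stood at 3015, 2625 and 2560 FPKM in MSCs, at 879, 674 and 747 in NPCs, and at 801, 826 and 629.5 with IGF1. Every induced library lay far below every MSC library. Vim ranked above 99.9% of the tested genes in MSCs and above 99.8% in NPCs, so it remained among the most abundant transcripts. Its mean was 2733 ± 246 FPKM (SD, n = 3) in MSCs and 766 ± 104 (SD, n = 3) in NPCs. The fit put the difference at −1.92 log2 (SE 0.17, adjusted p = 0.000274). It was −1.90 without the third MSC library and −1.12 under quantile normalisation, and the call held in both.

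In the 3 NPC libraries, and in none of the other 6, a part of Vim was assigned to an unannotated isoform. That part was 18.5%, 13.2% and 24.8% of the FPKM of the gene. In NPC replicates 1 and 2 the isoform had 9 exons, like the annotated transcript, and 1852 and 1834 bases against 1830. It ran from 82500847 in replicate 1 and 82500858 in replicate 2, both to 82509389, against 82500858 to 82509377 for the annotated transcript. In replicate 3 it had 8 exons and 1095 bases. The isoform was thus not the same in the 3 NPC libraries, and a difference in splicing was not tested. When only annotated transcripts were added up, the log2 fold change of Vim in NPCs was −2.10.

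Nes (ENSRNOG00000018681, chromosome 2, 206747073 to 206755585, + strand) was low in all cells. MSCs gave 0.152, 0.145 and 0.0534 FPKM, NPCs 0.293, 0.328 and 0.293, and cells with IGF1 0.331, 0.282 and 0.268 with IGF1. All induced libraries lay above all MSC libraries, and the third MSC library was the lowest. These levels rest on 34, 40 and 12 implied reads in MSCs and on 63, 67 and 73 in NPCs. Over the summed reads of the libraries the ratio of NPCs to MSCs was 2.56 (95% exact interval 1.98 to 3.33, for counting error only). The fitted change was 0.90 log2 (SE 0.28, adjusted p = 0.0429), which is under the size required. It gave 0.69 (adjusted p = 0.115) without the third MSC library and 0.63 (adjusted p = 0.129) under quantile normalisation. Only 1 of the 2 annotated transcripts of Nes, that of 5418 bases, carried FPKM, and the other, of 5682 bases, was listed at 0 in all 9 libraries.

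Since both proteins assemble into the same filaments, their ratio was compared within each library, which needs no scaling between libraries. Vim exceeded Nes by 19821, 18098 and 47966 times in FPKM in the MSC libraries. The excess was 2996, 2056 and 2551 times in NPCs and 2423, 2926 and 2348 times with IGF1. The log2 ratio of Nes to Vim rose by 3.37 in NPCs, from −14.66 ± 0.78 to −11.29 ± 0.27 (SD, n = 3), with no overlap between the libraries. The third MSC library was the lowest at −15.55, against −14.27 and −14.14 in MSC replicates 1 and 2. The size of the rise and the SD of MSCs therefore rest partly on that library. A 2-sided exact permutation test gave p = 0.1, the smallest that 3 libraries against 3 allow. With IGF1 the rise was 3.34, also with p = 0.1 in the exact permutation test.

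Hes3, the repressor, went from next to nothing in MSCs to a low but clear level in induced cells. Hes3 (ENSRNOG00000010893, chromosome 5, 173018613 to 173020507, − strand) was listed at 0, 0.0529 and 0.119 FPKM in MSCs, with 0, 2 and 3 implied reads. NPCs gave 1.21, 0.860 and 2.05 FPKM, and cells with IGF1 1.46, 1.75 and 0.591. The lowest induced library was the third with IGF1, and it still lay above every MSC library. The log2 fold change in NPCs was 3.15 (SE 0.44, adjusted p = 0.00173). Because the MSC levels are near 0, it depended on the amount added before the log and was 1.11 with 1 FPKM and 4.82 with 0.01 FPKM added, called both times. Over the summed reads, 130 in NPCs and 5 in MSCs, the ratio was 28.2 (95% exact interval 11.8 to 88.2, for counting error only). The NPC libraries held 35, 26 and 69 of these reads. Read from FPKM, length and depth instead, Hes3 had 47, 32.4 and 93.5 reads in NPCs and 0, 2.6 and 5.1 in MSCs. Without the third MSC library the log2 fold change was 3.49 (adjusted p = 0.0038).

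The single annotated transcript of Hes3, of 957 bases in 4 exons, held all its FPKM in every library where it was found except the second with IGF1. There 47.6% was in an unannotated isoform of 3 exons, and the annotated transcript was at 0.918 FPKM.

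**Figure D2:**
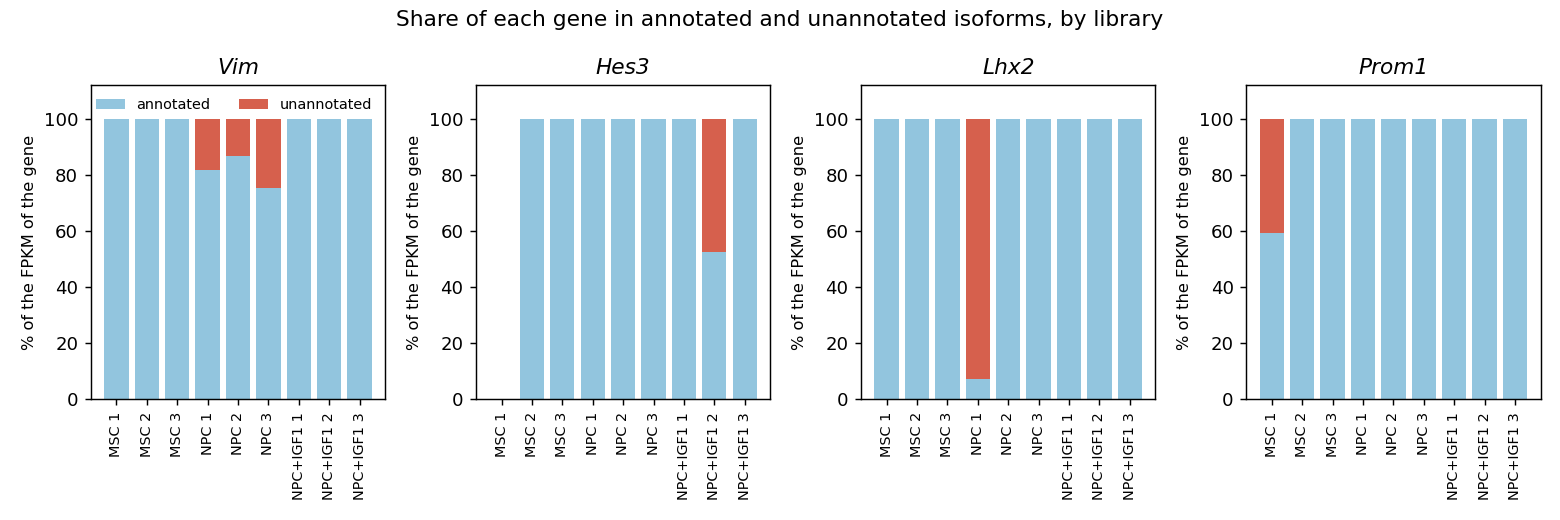
Percent of the FPKM of Vim, Hes3, Lhx2 and Prom1 held by annotated (blue) and unannotated (red) transcripts in each of the 9 libraries. Unannotated isoforms appear in all 3 NPC libraries for Vim and in 1 library each for Hes3, Lhx2 and Prom1. The empty place of Hes3 in MSC replicate 1 is a library where it was listed at 0.

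The homeodomain genes were split, with Lhx2 and Gbx2 higher and Emx2 lower in induced cells. Lhx2, a LIM homeodomain factor of the early forebrain and eye (ENSRNOG00000010551, chromosome 3, 27870027 to 27887928, + strand), stood at 0.738, 0.485 and 0.298 FPKM in MSCs. Induction brought it to 4.37, 2.47 and 1.64 FPKM in NPCs and to 2.19, 2.58 and 2.09 with IGF1. No induced library reached down to the MSC range, and the libraries with IGF1 lay inside the range of the NPC libraries. In the third MSC library the interval of Lhx2 implied 42.1 reads and its FPKM, length and depth 25.3. The log2 fold change in NPCs was 2.16 (SE 0.40, adjusted p = 0.00571), and 1.94 (adjusted p = 0.0214) without the third MSC library. With 1 FPKM added before the log it was 1.26 and still called. The widest value, NPC replicate 1, was mostly 2 unannotated isoforms with 24.9% and 68.1% of its FPKM. Its annotated transcript was at 0.307 FPKM, close to the MSC level. With annotated transcripts alone the call ended (log2 fold change 1.11, adjusted p = 0.418), and with NPC replicate 1 left out it held at 1.799 (adjusted p = 0.0186). With each transcript weighted by its length, a choice made after seeing the data, the library was at 2.76 FPKM and the log2 fold change was 1.95.

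Gbx2 (ENSRNOG00000019495, chromosome 9, 96754122 to 96756543, − strand) stood at 0.642, 0.449 and 0.616 FPKM in MSCs. Its induced levels were 1.84, 1.67 and 3.42 FPKM in NPCs and 2.11, 2.42 and 3.64 with IGF1. In both induced groups the third library was the highest, and no induced library reached down to the MSC range. The log2 fold change in NPCs was 1.72 (SE 0.34, adjusted p = 0.00787), and 1.84 (adjusted p = 0.0189) without the third MSC library. With 1 FPKM added before the log it was 1.00, at the edge of the size required, and still called. All FPKM of Gbx2 came from its annotated transcript of 2 exons and 1379 bases. When only annotated transcripts were added up for all genes, the log2 fold change was 1.83 and the adjusted p 0.0559, so that the call ended on its p and not on its size.

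The transcripts on the opposite strand upstream of Gbx2 were also more abundant in induced cells. A library held 1 to 4 of them, and the nearest lay 427 to 656 bases from the gene in MSCs, 328 to 369 in NPCs and 299 to 425 with IGF1. Their summed level, as FPKM multiplied by length in kilobases (FPM), was 2.04, 2.07 and 0.902 in MSCs, 2.40, 4.38 and 7.16 in NPCs and 5.19, 2.66 and 7.72 with IGF1. The third library of each induced group was the highest, as for Gbx2 itself, but the other libraries did not follow the order of Gbx2. Replicates 1 and 2 ranked in the opposite order in both induced groups. In MSCs the third library was the lowest upstream but not the lowest for Gbx2. The MSC libraries lay below all others, and how often transcripts upstream of other genes separate in this way was not examined. Upstream of Vim the level was 1.33 ± 0.58 FPM (SD, n = 3) in MSCs and 2.11 ± 1.66 in NPCs, and upstream of Emx2 it was 5.19 ± 2.14 and 5.81 ± 1.62, and these groups overlapped. The window of 10000 bases was chosen after the data were seen, and these levels were not tested.

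**Figure D3:**
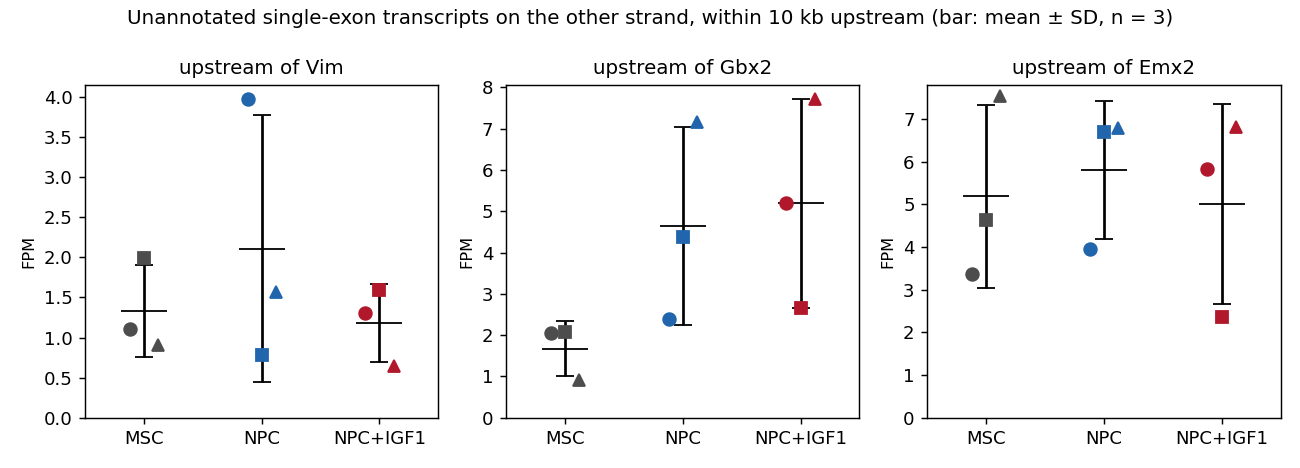
Summed level in FPM, the fragments of a transcript scaled to the fragments of the library, of unannotated single-exon transcripts on the opposite strand within 10 kb upstream of Vim, Gbx2 and Emx2, with points for replicates 1 to 3 as circle, square and triangle and bars for the mean ± SD (n = 3). The MSC libraries lie below the induced libraries for Gbx2 and overlap them for Vim and Emx2.

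Emx2 (ENSRNOG00000009482, chromosome 1, 287993648 to 288000656, + strand), a factor of the dorsal forebrain, stood at 1.43, 1.71 and 1.31 FPKM in MSCs. It was down to 0.573, 0.675 and 0.701 FPKM in NPCs and to 0.508, 0.510 and 0.827 with IGF1. Every MSC library lay above every induced library, so the gene fell from the second highest of the 7 in MSCs to the fifth in NPCs. The log2 fold change in NPCs was −1.14 (SE 0.23, adjusted p = 0.00778), near the size required, and −1.17 (adjusted p = 0.0217) without the third MSC library. The call ended with 1 FPKM added before the log (−0.62) and with annotated transcripts alone (−1.03, adjusted p = 0.118). Its single annotated transcript, of 3 exons, held all its FPKM.

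Prom1 showed the widest gap of the genes that fell. Prom1 (ENSRNOG00000003098, chromosome 14, 71563324 to 71668091, + strand) stood at 0.655, 0.482 and 0.639 FPKM in MSCs. NPCs held 0.0130, 0.0201 and 0.0277 FPKM, and cells with IGF1 0.0162, 0.0183 and 0.0062. The NPC values stand for 2, 3 and 5 implied reads and those with IGF1 for 3, 3 and 1, while the MSC libraries held 93, 95 and 131. The count of MSC replicate 1 came from FPKM, length and depth, and its intervals implied 66.8 reads. In the third MSC library the interval implied 130.9 reads and FPKM, length and depth 105.6. Over the summed reads MSCs were 29.4 times higher than NPCs (95% exact interval 15.8 to 62.0, for counting error only). The fitted log2 fold change of −2.56 (SE 0.27, adjusted p = 0.000529) is smaller, because 0.1 FPKM is added to values of at most 0.0277 FPKM. It was −0.66, and not called, with 1 FPKM added, and −4.39 with 0.01 FPKM. Leaving out the third MSC library gave −2.47 (adjusted p = 0.00351) with the filter at 2 libraries. Of 27 exons of the annotated transcript, MSC replicate 1 had part of its level (40.8%) in an unannotated isoform of 25 exons.

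In order of mean level, NPCs ranked Vim, Lhx2, Gbx2, Hes3, Emx2, Nes and Prom1. The libraries of Lhx2 overlapped those of Gbx2, and those of Gbx2 overlapped those of Hes3, so the order of these 3 is not fixed by the data. In MSCs the order was Vim, Emx2, Prom1, Gbx2, Lhx2, Nes and Hes3, and there Prom1, Gbx2 and Lhx2 overlapped, as did Nes and Hes3. FPKM is scaled by transcript length, which allows this comparison between genes.

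Cells induced with IGF1 as well were compared with the same MSC libraries, so both comparisons share their controls. Again 6 of 7 genes were called, in a comparison where 21.3% of 14208 genes were called, 11.5% higher and 9.81% lower. Hes3 (log2 fold change 3.01), Gbx2 (1.97) and Lhx2 (1.96) rose, and Prom1 (−2.65), Vim (−1.96) and Emx2 (−1.25) fell, with adjusted p of 0.0033 or less. Nes was at 0.85 (SE 0.25, adjusted p = 0.0248), and was called at 1.29 with 0.01 FPKM added. No library with IGF1 overlapped an MSC library for the 7 genes, against 54.4% of the genes tested. Without the third MSC library and with the filter at 2 libraries, 6 were called and Nes was at 0.64 (adjusted p = 0.0668). The calls of Lhx2 (log2 fold change 2.04, adjusted p = 0.0834) and Emx2 (−1.16, adjusted p = 0.0617) ended with annotated transcripts alone, and those of Emx2 (−0.67) and Prom1 (−0.67) ended with 1 FPKM added.

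Adding IGF1 to EGF and bFGF left no call among the 7 genes. Of all genes tested, 0.0211% were called between these groups (0.0141% higher, 0.00704% lower) and 4.58% had an unadjusted p under 0.05 with limma. The lowest unadjusted p among the 7 genes was 0.479, for Gbx2. The libraries of both induced groups overlapped for all 7 genes, against 9.59% of genes tested whose groups did not overlap. The 95% interval of the log2 difference was −0.40 to 0.31 for Vim, −0.62 to 0.51 for Nes, −0.64 to 0.43 for Emx2 and −0.63 to 0.46 for Prom1. It was wider for Lhx2 (−1.01 to 0.60), Gbx2 (−0.51 to 1.00) and Hes3 (−1.24 to 0.92). These intervals do not show that the groups are alike. For Hes3 and Lhx2 a 2-fold lower level with IGF1 lies within them, and for Gbx2 a 2-fold higher level does, at the edge.

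**Figure D4:**
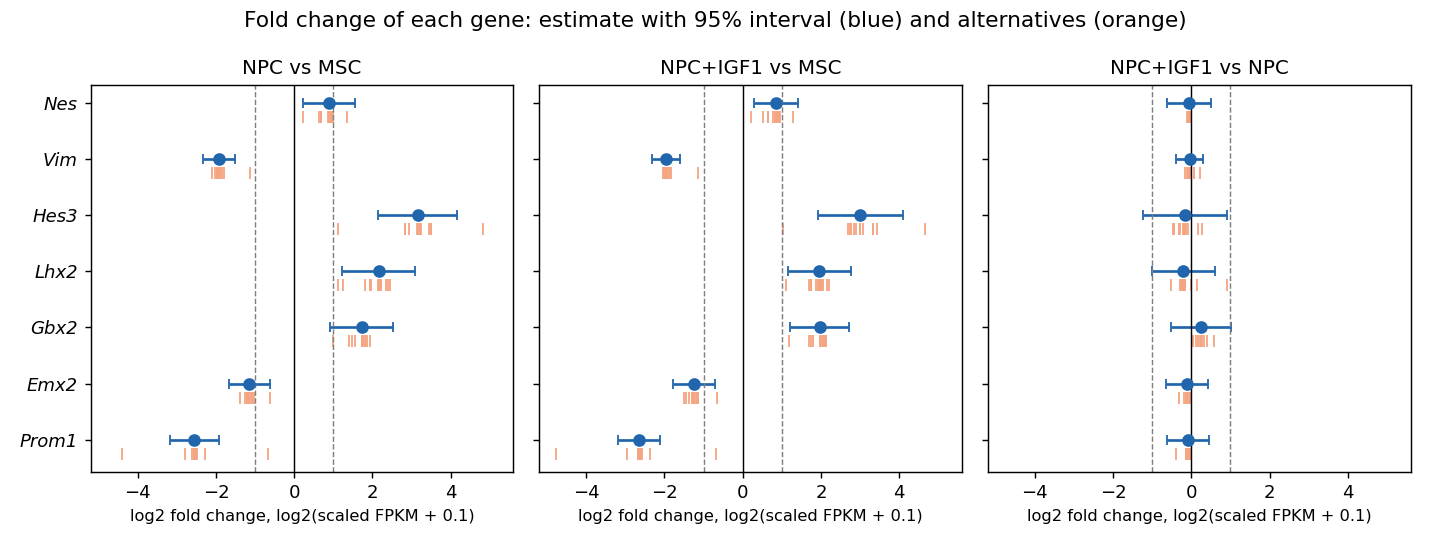
Log2 fold change of each gene in the 3 comparisons, on the scale of log2(scaled FPKM + 0.1). Blue points with bars are the estimate and its 95% interval, orange ticks are the values under the alternatives, some with another amount added before the log, and dashed lines mark −1 and 1. Against MSCs the estimates of Hes3, Lhx2 and Gbx2 lie above 1 and those of Vim, Emx2 and Prom1 below −1, and between the induced groups all lie within 0.25 of 0.

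The lists of related genes below were drawn from textbook knowledge, and the names that could be matched came mostly from the genes that the study called on these samples. Their counts are therefore no independent evidence of a direction. Among partners of Vim and Nes, 4 of 22 intermediate filament and linker genes were found, and the 3 tested rose in NPCs and with IGF1. Synm, whose product synemin joins vimentin and nestin in filaments, was at 0.239 ± 0.0688 FPKM in MSCs and 1.66 ± 0.748 in NPCs (SD, n = 3; log2 fold change 2.23, adjusted p = 0.00388). Evpl and Ppl, plakins that tie filaments to cell junctions, had log2 fold changes of 3.76 and 3.56. Gfap, the filament of astrocytes, reached at most 0.0237 FPKM in any library and was not tested.

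Of 40 Notch pathway genes, the pathway that drives many Hes genes, 5 were found and 0 were called in NPCs with limma. Hes1, a direct Notch target, was at 12.9 ± 3.91 FPKM in MSCs and 13.0 ± 4.76 in NPCs (SD, n = 3; log2 fold change −0.08, adjusted p = 0.872). Notch4, a receptor, was called with IGF1 (1.83, adjusted p = 0.0287) and was at 1.497 (adjusted p = 0.0961) in NPCs, and Psen2, a subunit of gamma-secretase, was at 0.38 (adjusted p = 0.154). Of the 30 other genes of neural stem cells and progenitors, 6 were found and 5 tested. Fzd9, a Wnt receptor, rose in NPCs (log2 fold change 1.93, adjusted p = 0.00227), and Sox11, a factor of young neurons, fell (−2.40, adjusted p = 0.00159). Fabp7, a lipid carrier of radial glia, was listed at 0 in all libraries.

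Among 36 further patterning factors 7 were found, and all 5 tested fell in NPCs and with IGF1. Lmx1b, a LIM homeodomain factor, had a log2 fold change of −1.55 in NPCs, Meis2 of −1.42 and Vax2, a factor of the ventral eye, of −1.41. Of 20 LIM factors and cofactors 8 were found and 5 tested, of which 2 rose and 3 fell. Lhx9, a close relative of Lhx2, rose like it (0.405 ± 0.160 to 2.70 ± 0.202 FPKM, SD, n = 3; log2 fold change 2.45, adjusted p = 0.000755), and Lmo2, a LIM-only protein, rose by 1.41. Lmx1a (−1.29), Lmx1b and Lmo4 (−1.14) fell. Of 11 receptors of EGF, FGF and IGF 3 were found, and in NPCs Igf2r, which binds IGF2 and mannose 6-phosphate, rose (log2 fold change 2.28) and Erbb4, a neuregulin receptor, fell (−1.97).

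The gene most like each member over the 9 libraries was sought among 1311 or 1312 named genes with a mean of at least 1 FPKM, by Pearson correlation on the log2 scale. Among the 9 points the MSC libraries differ from the induced ones, so high values are common. The most alike were Il4i1 (0.984) and Ep300 (0.983) for Nes, Pcdhga4 (0.994) and Adgrg2 (0.993) for Vim, and Nfkbia (0.970) beside a locus with only a clone name for Hes3. For Lhx2 they were Synm (0.980) and Thbs4 (0.976), and for Gbx2 Sod2 (0.988) beside another such locus. For Emx2 the nearest was Slc7a7 (0.983), and for Prom1 they were Lmln (0.997) and Dbndd2 (0.997).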

How the data were processed

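The data hold mRNA of 9 rat libraries. For MSCs and NPCs the methods give 300 ng of RNA per library, a stranded kit and single-end reads. They do not describe the libraries with IGF1. In each deposited file the authors give the Cufflinks transcripts of 1 library, with FPKM and a confidence interval as attribute text. Per the labels, CASAVA 1.8, bcl2fastq, TopHat, Bowtie2, Cufflinks and Cuffdiff were used. The authors describe BBDuk, STAR, RSEM and DESeq2 in their methods, and values of that route were not used here. The methods name rn6 for that route, and the build of the deposited Cufflinks files was not stated in what was read. The deposited score column was left out. Depth was read from the interval widths, so that intervals on reads cover counting error only.

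For each gene, FPKM was summed over its isoforms, annotated or not, and divided by median-of-ratios size factors. With 0.1 added, log2 values of genes at 0.1 FPKM in 3 libraries or more, and with a transcript of at least 300 bases, entered limma 3.58.1 (R 4.3.3; robust eBayes with a trend). NPCs and MSCs were fitted in 6 libraries, and the comparisons with IGF1 in 9. Reads came from the interval, or from FPKM, length and depth. Symbols came from the supplementary tables of the paper, which name 2452 of the gene IDs found. Named were the 7 genes, the called genes of each list (up to 4, by size of change; where fewer than 2 were called, the 2 of highest FPKM) and the 2 genes most alike. Lmo4, Mcam, Gfap, Rbfox3, Fabp7 and Ptprc were named after their values were seen. Some genes of the lists are not reported here. The members and lists were chosen with earlier results of these data known. Alternatives changed the amount added, filter, scaling, block, trend, transcripts, libraries and length. The fit was tested on simulated data. Tables and plots were made with Python 3.11.15 (pandas 2.3.3, scipy 1.17.1, matplotlib 3.10.9).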

Additional observations from a re-analysis of the deposited data

Results flagged for a closer look

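The unannotated transcripts on the opposite strand upstream of Gbx2 lie outside the gene-level measurement, and their level in induced cells was above that of the untreated cells in every library. The share of such transcripts at other genes with this separation was not examined. The mean was 4.64 ± 2.39 FPM (FPKM multiplied by length in kilobases) in NPCs and 5.19 ± 2.53 with IGF1, against 1.67 ± 0.67 in MSCs (SD, n = 3).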

How the results depend on the processing

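The calls of Vim and Hes3 against MSCs held under every alternative in which they were tested. Those of Lhx2, Gbx2, Emx2 and Prom1 ended only where the text above says so. With 1 FPKM added, 1715 genes were called in NPCs and 1752 with IGF1 against MSCs, in place of 2931 and 3032. With annotated transcripts alone 1198 and 1505 were called, and 3 of the 7 genes in NPCs. The cause was not tested. Between the induced groups 3 genes were called, 5 without the filter or without trend, 1 with the replicate block, 19 with annotated transcripts alone, 9 with genes of every length, and 2 to 10 with 1 library left out. Leaving out 1 library gave 2239 to 2846 genes in NPCs and 2700 to 2976 with IGF1. Prom1 was not tested when an MSC library was left out under the filter of 3 libraries.

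None of the 7 genes was called between the induced groups in any setting, but signs turned. With annotated transcripts alone the log2 difference was 0.23 for Vim and 0.92 for Lhx2, and with length weights 1.5e-05 and 0.0020. Leaving out 1 library turned Vim (−0.15 to 0.073), Hes3 (−0.45 to 0.27), Lhx2 (−0.51 to 0.16), Emx2 (−0.31 to 0.0017) and the log2 ratio of Nes to Vim (−0.16 to 0.11). MSCs and NPCs came from the same rats, but no source says that equal replicate numbers mark 1 rat, and deviations of same-numbered NPC and MSC libraries correlated at 0.0031 to 0.107, where NPC replicates 1 and 2, but not 3, correlated best with their own number. With the number as a block 2851 genes were called in NPCs, 2992 with IGF1 and the same number of the 7 genes, and Nes had an adjusted p of 0.0705. The length weights and the filter at 2 libraries were chosen after seeing the data. Genes near 0.1 FPKM rest on few reads at this depth.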
